A study of Mus musculus with 12 samples.

Results

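Expression of 7 genes of the sperm tail and of spermatids was followed through the testis of Wobbler modifier, Wobbler and wildtype mice. The genes are Smcp and Gpx4 of the mitochondrial capsule, Odf1 and Odf2 of the outer dense fibres, Akap3 and Akap4 of the fibrous sheath, and Fscn3, an actin-bundling protein of spermatids. The members were taken by gene symbol: all probes that the platform annotation names for one of the 7 genes, which came to 10 of 20355 probes. Of the 7 genes, 6 had enough values to be tested, among 14729 features tested in all. Gpx4 had 8 values on 12 arrays and did not enter the main test.

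Each array carried RNA of a pair of genotypes, one in the dye Cy5 and the other in Cy3, and gave the log2 of their ratio. Wobbler modifier was set against wildtype, Wobbler modifier against Wobbler, and Wobbler against wildtype, on 4 arrays each. Per the labels, every RNA was a pool from 3 males, all genotypes had a Castaneus background, and the Wobbler mice were wr/wr. Wobbler modifier mice are taken, from their name, to be Wobbler mice that carry a modifier. The labels do not identify the modifier further and give no age. Wobbler is a mutation of Vps54, whose protein takes part in tethering vesicles at the Golgi, and Wobbler males are known for round-headed, infertile sperm. A pooled control cDNA, mentioned in the labelling protocol, has no counterpart in the channel labels, which were followed. Nothing says that the arrays of a comparison came from separate pools, so p-values reflect differences among arrays that may be technical only.

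On replicates 1 and 2 of each comparison the first-named genotype was in Cy5, and on replicates 3 and 4 it was in Cy3. The deposited values of replicates 3 and 4 were multiplied by -1, so that every ratio below is the first-named genotype over the second. The deposited Smcp values of Wobbler modifier over wildtype were -1.12 and -0.95 on the first pair of arrays and, before this step, of opposite sign on the other pair. That a negative ratio means a lower level in the first-named genotype is likely from how the arrays are titled and from the common dye convention, but is not stated. A ratio carries no level, so neither the abundance of a gene nor the presence of testis marker genes could be read from these values. The arrays held 18325 to 19584 usable spots, with SDs of the log2 ratios between 0.62 and 1.61, the widest being replicate 2 of Wobbler over wildtype. The median over all features was 0.01 in Wobbler modifier over wildtype, 0.08 in Wobbler modifier over Wobbler and -0.01 in Wobbler over wildtype.

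The mammalian sperm tail is built around an axoneme of microtubules. Outer dense fibres run beside the axoneme and stiffen it, a helical sheath of mitochondria surrounds them in the midpiece, and the fibrous sheath surrounds them in the principal piece, where it holds signalling and glycolytic enzymes. The keratin-like capsule of the sperm mitochondria contains selenium and cysteine-rich proteins. Many of these parts are made in late, elongating spermatids from transcripts that are stored and translated after transcription has stopped.

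The genes lie on 6 chromosomes of the mouse assembly GRCm38.p6. Smcp lies at chr3:92583866-92589073, Gpx4 at chr10:80047166-80056439, Odf1 at chr15:38219203-38226735 and Odf2 at chr2:29889014-29931746. Akap3 lies at chr6:126853098-126874308, Akap4 at chrX:7067515-7078609 and Fscn3 at chr6:28427870-28438622. Only Akap3 and Fscn3 share a chromosome. Each gene had 1 probe except Odf2, which had 4.

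RefSeq promoter windows of GRCm38.p6, each with 250 bases before and 50 after a transcript start, were given for 6 of the 7 genes, with 13 windows in all. Among them the fibrous sheath genes Akap3 and Akap4, which encode related proteins, shared 1 identical run of 20 bases just before the start. The run is shown because no other of 32851 windows, from 27025 genes, held it. The longest run shared by the other 14 pairs of genes was 8 to 14 bases. The bases up to each start follow, on the plus strand, at chr6:126853039-126853097 for Akap3 and chrX:7067443-7067514 for Akap4, with the shared run in capitals.
Akap3: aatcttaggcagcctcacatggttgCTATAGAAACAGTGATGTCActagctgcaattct
Akap4: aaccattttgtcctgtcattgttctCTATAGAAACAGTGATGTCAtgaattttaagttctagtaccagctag
The run lies 34 to 15 bases before the start in Akap3 and 47 to 28 bases before it in Akap4. It ends in TGATGTCA, which differs by 1 base from TGACGTCA, the cAMP response element that CREM, a regulator of spermatid genes, is known to bind. Both motifs were chosen after the windows were seen and were searched on both strands. TGATGTCA (TGACATCA on the other strand) was in 3.62% of all windows. Akap3 held it 2 times, a number reached by 0.228% of windows, Akap4 held it 1 time within the shared run, and Smcp held it 1 time, 25 to 32 bases after the start. TGACGTCA was in 1.79% of all windows and in none of these 13. These matches describe the letters and say nothing of binding.

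The first comparison asked how these genes differed between Wobbler modifier and wildtype testis. Smcp was lower in Wobbler modifier testis, by 2.18-fold, and was the only one of the 6 tested genes to pass the threshold of 0.05 for the limma p adjusted over all features. Over all features, 0.699% were lower and passed, and 0.733% passed in either direction. The fitted log2 ratios of all 6 tested genes were below 0, between -1.12 and -0.32 with a median of -0.62, while 47.5% of all features were below 0. Of the 6, 5 were below 0 on all 4 arrays, against 10.4% of features, and all 6 were where Odf2 was averaged without its sparsely measured probe 8203. An unadjusted p under 0.05 was reached by 4 of the 6, against 7.33% of features. Beside Smcp, Akap4 came nearest to the threshold. The 7 genes were chosen with earlier results of these data known. Counts of them, here and in the other comparisons, are therefore no independent support.

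Smcp encodes the cysteine-rich protein of the sperm mitochondrial capsule, which is needed for full sperm motility in mice. Its log2 ratios of Wobbler modifier over wildtype on replicates 1 to 4 were -1.12, -0.95, -1.24 and -1.18. All 4 arrays were close together and far below 0, in both dye orientations. The fitted log2 ratio was -1.12 ± 0.10 (SE, n = 4 arrays) with an adjusted p of 0.000995, the seventh smallest p of all features. Leaving out each array in turn kept it between -1.16 and -1.07, and a fit to the 4 arrays of this comparison alone gave an adjusted p of 0.0698. In whole testis, fewer late spermatids and less RNA in each of them cannot be told apart. Markers of late spermatids were lower too: 10 of 16 genes of that list were lower and passed, against 0.699% of all features. None was higher and passed, and the median log2 ratio was -0.97. Like the lists below, this list was drawn up with earlier results of these data known, so its counts are no independent support. The part of these markers in the Smcp result was not tested.

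Gpx4 encodes the selenoprotein that protects membrane lipids from peroxides and is cross-linked into the mitochondrial capsule as sperm mature. Its log2 ratios of Wobbler modifier over wildtype were -0.58, -0.07, -1.28 and -1.77. All 4 were below 0, but they spread far more than those of Smcp (mean -0.92 ± 0.75, SD, n = 4), and the pair with Wobbler modifier in Cy3 was the lower. With the filter on missing values dropped, limma gave -0.92 ± 0.48 (SE, n = 4) and an adjusted p of 0.908 over 16074 features.

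Odf1 encodes a main structural protein of the outer dense fibres, and mice without it have sperm whose heads detach. Its log2 ratios of Wobbler modifier over wildtype were -0.83, -0.78, -0.80 and -0.63. The arrays lay close together and below 0 in both dye orientations (SD 0.09). The fit gave -0.76 ± 0.21 (SE, n = 4) and an adjusted p of 0.218. That SE comes from 1 spread over all 12 arrays, and the Odf1 ratios spread most in Wobbler over wildtype. Without replicate 2 of Wobbler over wildtype, the widest array, Odf1 passed at an adjusted p of 0.0255.

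Odf2 encodes the scaffold protein of the outer dense fibres, and other forms of it sit at the centrosome of many cell types. Averaged over its probes, its log2 ratios of Wobbler modifier over wildtype were -0.37, -0.10, 0.07 and -0.89. They lay on both sides of 0, and the fit gave -0.32 ± 0.18 (SE, n = 4) with an adjusted p of 0.908. Leaving out single arrays moved that value between -0.48, without replicate 3, and -0.12, without replicate 4. The 4 probes did not give the same picture. Probe 5695 had -0.60, -0.18, -0.87 and -0.95 and probe 12968 had -0.57, -0.55, -0.90 and -0.57. These 2 probes were below 0 on all 4 arrays, with fitted values of -0.65 ± 0.13 (adjusted p = 0.0616 over 18038 probes) and -0.64 ± 0.16 (adjusted p = 0.125). Probe 16430 had 0.06, 0.42, 0.05 and 0.29, above 0 on all 4 arrays, with a fitted value of 0.21 ± 0.24 (adjusted p = 1). Probe 8203 was measured on only 2 of the 4 arrays, at 2.00 and -2.33, and had 6 values over the whole set. The 1 array mean above 0, on replicate 3, came from this probe: from the other 3 probes the array means were -0.37, -0.10, -0.57 and -0.41, and the fit gave -0.36 ± 0.13 (adjusted p = 0.436). Which form of Odf2 each probe matches was not analysed here.

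**Figure D1:**
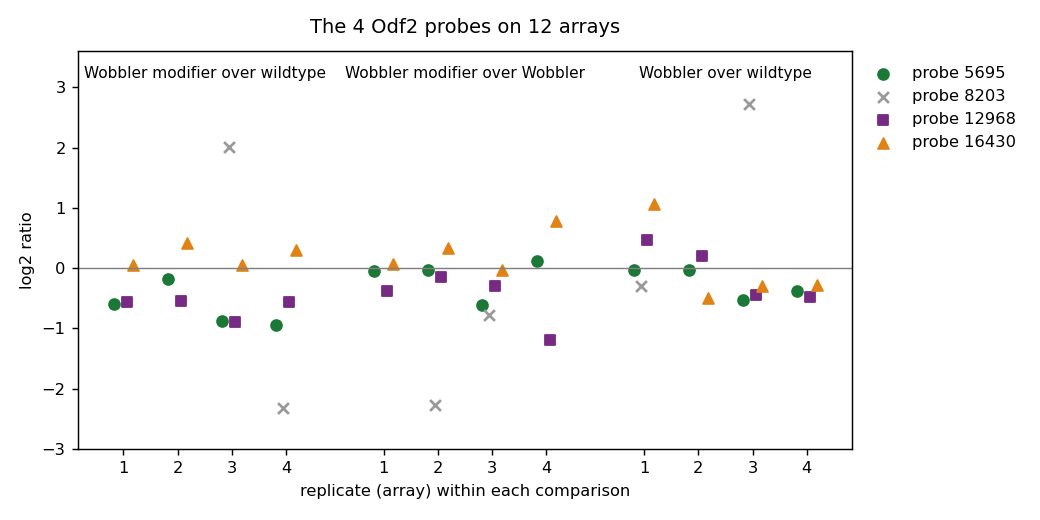
Log2 ratio of each of the 4 Odf2 probes (y axis) on the arrays of the 3 comparisons (x axis, replicates 1 to 4 in each). Probes 5695 and 12968 lie below 0 and probe 16430 above 0 on all 4 arrays of Wobbler modifier over wildtype, and probe 8203 has 6 scattered values between -2.33 and 2.73.

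Akap4 encodes the most abundant protein of the fibrous sheath, an anchor for protein kinase A, without which mouse sperm do not swim. Its log2 ratios of Wobbler modifier over wildtype were -0.79, -0.77, -1.16 and -1.18. All 4 arrays were below 0, and the pair with Wobbler modifier in Cy3 was the lower. The fitted log2 ratio was -0.97 ± 0.21 (SE, n = 4), a 1.96-fold difference with an adjusted p of 0.0893. Without replicate 2 of Wobbler over wildtype it passed at an adjusted p of 0.00849, and 3 of the 6 genes then passed. The number of all features that passed also moved with the array left out, from 20 to 154, against 108 in the main test.

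Akap3, the kinase anchor that organises the fibrous sheath early in its assembly, had log2 ratios of Wobbler modifier over wildtype of -0.61, -0.44, -0.48 and -0.36. They lay below 0 on all 4 arrays and close together, at less than the distance of Akap4. The fitted value was -0.48 ± 0.13 (SE, n = 4) with an adjusted p of 0.181. With each array scaled to a common spread, Akap3, Akap4 and Odf1 passed as well, at adjusted p of 0.0409, 0.00256 and 0.0139. That scaling raised the calls over all features too, from 108 to 483.

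Fscn3 belongs to the fascins, which bundle actin filaments, and is expressed in the testis. Its log2 ratios of Wobbler modifier over wildtype were -0.46, -0.80, -0.33 and -0.34. All 4 were below 0, and the fit gave -0.48 ± 0.27 (SE, n = 4) with an adjusted p of 0.898.

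**Figure D2:**
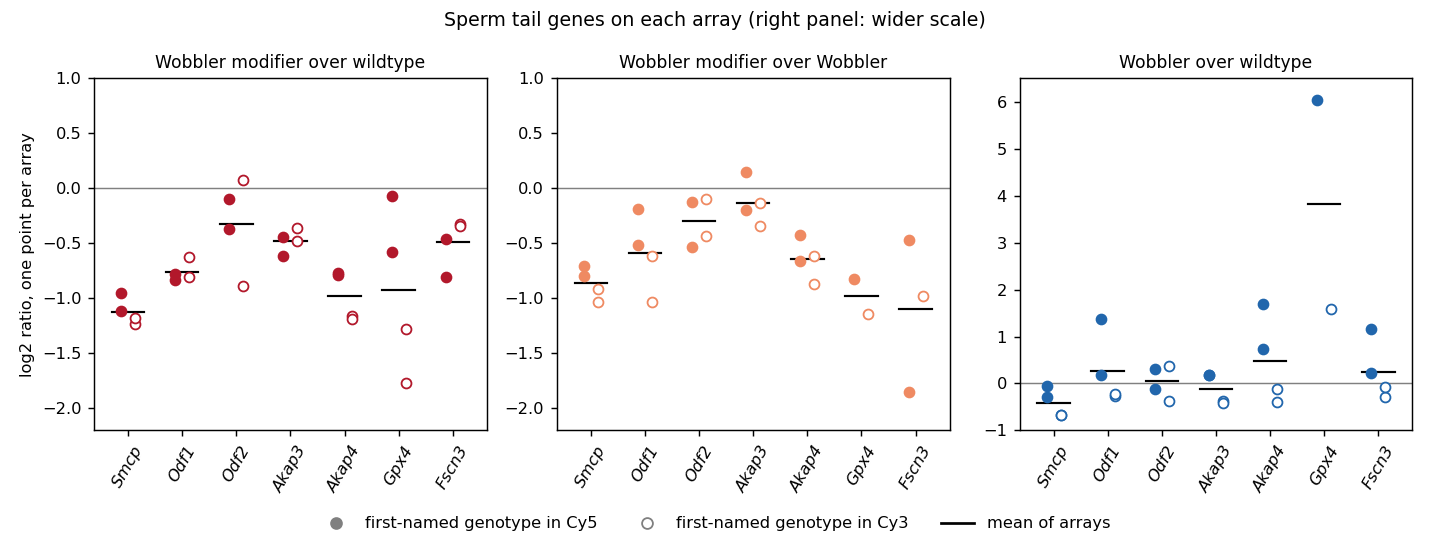
Log2 ratio on each array (y axis, wider in the right panel) of the 7 genes (x axis) in the 3 comparisons. Filled points are arrays with the first-named genotype in Cy5, open points those with it in Cy3, and bars are means. All Wobbler modifier over wildtype points lie below 0 except 1 of Odf2 at 0.07, a mean that includes probe 8203, and the Gpx4 points of Wobbler over wildtype reach 6.04.

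The second comparison set Wobbler modifier directly against Wobbler testis. Smcp was again the 1 gene of 6 that passed, lower in Wobbler modifier by 1.82-fold, where 0.299% of all features were lower and passed and 0.414% passed in either direction. The fitted log2 ratios of the 6 genes lay between -1.13 and -0.13 with a median of -0.62, all below 0, as were 38.4% of all features. Of the 5 tested genes with values on all 4 arrays, 4 were below 0 on every array, against 6.13% of features, and 3 were where Odf2 was averaged without probe 8203. Of the 6, 4 had an unadjusted p under 0.05, against 11.5% of features. This comparison shares its Wobbler modifier genotype with the first and is not independent of it where pools were reused. As above, its counts of members are no independent support.

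Smcp had log2 ratios of Wobbler modifier over Wobbler of -0.70, -0.80, -1.04 and -0.91 on replicates 1 to 4. All 4 were below 0. The fit gave -0.86 ± 0.10 (SE, n = 4) with an adjusted p of 0.00673. The call depended on single arrays: the adjusted p was 0.0764 without replicate 1 and 0.0624 without replicate 2 of this comparison, while the fitted value stayed between -0.90 and -0.83. It was also 0.0551 without the dye term and 0.567 from the 4 arrays of this comparison alone. Of the late spermatid list, 6 of 16 genes were lower and passed, none was higher, and the median was -0.64. Gpx4 was measured on 2 of the 4 arrays, at -0.82 and -1.14.

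Of the outer dense fibre pair, Odf1 had log2 ratios of Wobbler modifier over Wobbler of -0.52, -0.19, -0.62 and -1.04, all below 0 but spread over a wider range than against wildtype. The fitted value was -0.59 ± 0.21 (SE, n = 4) with an adjusted p of 0.326. Odf2 had -0.12, -0.53, -0.43 and -0.10, and a fitted value of -0.30 ± 0.18 (adjusted p = 0.577), which was -0.20 without replicate 2. Probe 8203 entered on replicates 2 and 3, at -2.28 and -0.78. The -0.78 lay at a ratio of small whole numbers, a possible sign of a dim spot. From the other 3 probes Odf2 had -0.12, 0.05, -0.32 and -0.10, on both sides of 0, and a fitted value of -0.12 ± 0.13 (adjusted p = 0.789). Its probes differed here too. Fitted by probe, 12968 was at -0.51 (adjusted p = 0.230), 5695 at -0.14 (adjusted p = 0.734) and 16430 at 0.28 (adjusted p = 0.698).

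Of the fibrous sheath anchors, Akap4 had log2 ratios of -0.66, -0.42, -0.87 and -0.62, all below 0, and a fitted value of -0.64 ± 0.21 (SE, n = 4, adjusted p = 0.286). Akap3 had 0.15, -0.20, -0.34 and -0.13, on both sides of 0, and a fitted value of -0.13 ± 0.13 (SE, n = 4, adjusted p = 0.768). Leaving out single arrays moved the Akap3 value between -0.19 and -0.06. The 95% interval of Akap3 ran from -0.41 to 0.15 and that of Akap4 from -1.11 to -0.17. The difference between the genes was not tested. Fscn3 was measured on 3 of the 4 arrays, at -1.85, -0.47 and -0.98, with a fitted value of -1.13 ± 0.31 (SE, n = 3, adjusted p = 0.205). Leaving out single arrays moved that value between -1.41 and -0.72, more than for any of the other 5 genes.

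The third comparison set Wobbler against wildtype testis. None of the 6 genes passed in limma, where 0.306% of features passed, and 2 of the 6, Smcp and Akap4, had an unadjusted p under 0.05, as had 15.7% of features. The fitted log2 ratios ran from -0.42 for Smcp to 0.48 for Akap4 with a median of 0.15, and 2 of the 6 were below 0, as were 50.8% of all features. In 5 of the 6 genes the pair of arrays with Wobbler in Cy5 lay above the pair with Wobbler in Cy3, against 36.9% of features, and in all 6 where Odf2 was averaged without probe 8203.

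Smcp had log2 ratios of Wobbler over wildtype of -0.05, -0.28, -0.68 and -0.68. All 4 were below 0, as for 10.8% of features, with a mean of -0.16 on the pair with Wobbler in Cy5 and -0.68 on the pair with Wobbler in Cy3. The fitted value was -0.42 ± 0.10 (SE, n = 4) with an adjusted p of 0.125. Of the 16 late spermatid genes limma called none, 1 had an unadjusted p under 0.05, and the median was -0.11. Gpx4 was measured on 2 arrays, at 6.04 and 1.60, the higher on replicate 2, the widest array. Without the filter its adjusted p was 0.137, from these 2 arrays.

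Odf1 had 0.17, 1.38, -0.26 and -0.22 in Wobbler over wildtype. Akap4 had 0.74, 1.70, -0.39 and -0.13, Akap3 had 0.19, 0.17, -0.38 and -0.42, and Fscn3 had 0.22, 1.16, -0.29 and -0.07. In each of these 4 genes the sign followed the dye orientation, positive with Wobbler in Cy5 and negative with it in Cy3. Replicate 2 was the highest array for Odf1, Akap4 and Fscn3. Their fitted values were 0.27 ± 0.21 for Odf1 (adjusted p = 0.534), 0.48 ± 0.21 for Akap4 (adjusted p = 0.310), -0.11 ± 0.13 for Akap3 (adjusted p = 0.681) and 0.25 ± 0.27 for Fscn3 (adjusted p = 0.650). Without replicate 2, Akap4 moved to 0.15 (adjusted p = 0.724), Odf1 to -0.06 and Fscn3 to -0.06, while Akap3 lay between -0.18 and -0.04 without any 1 array. Odf2 had 0.30, -0.11, 0.36 and -0.38, and a fitted value of 0.04 ± 0.18 (adjusted p = 0.921). The 0.36 on replicate 3 rested on 1 value of probe 8203, at 2.73, where the other 3 probes lay between -0.53 and -0.30. Averaged over those 3 probes, Odf2 had 0.50, -0.11, -0.43 and -0.38, with both arrays of Wobbler in Cy5 above both with it in Cy3, and a fitted value of -0.10 ± 0.13 (adjusted p = 0.709).

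**Figure D3:**
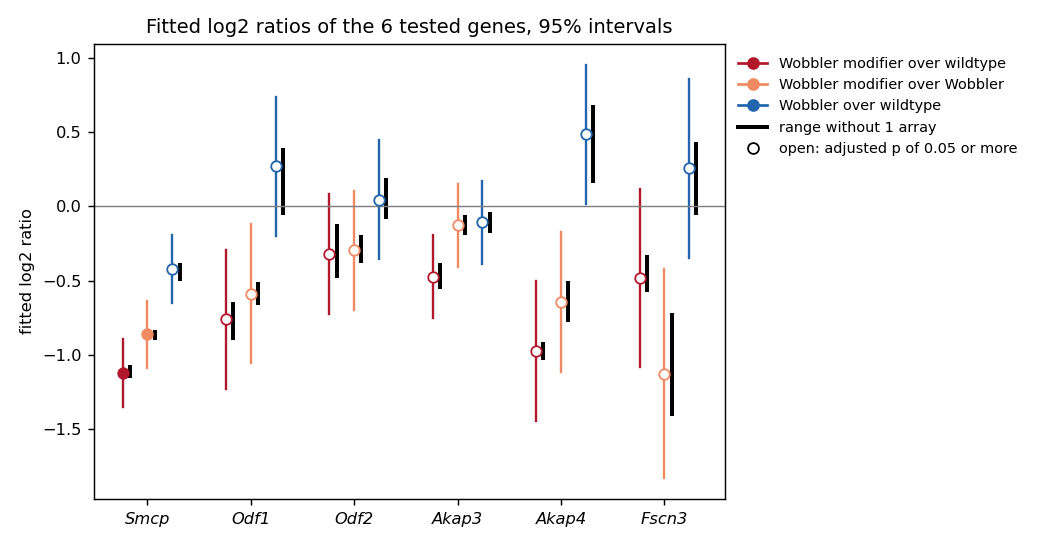
Fitted log2 ratios (y axis) of the 6 tested genes (x axis) in the 3 comparisons, with 95% intervals as thin lines and the range without 1 array as black bars. Only the Smcp points of Wobbler modifier over wildtype (-1.12) and over Wobbler (-0.86) are filled, that is, passed at an adjusted p under 0.05.

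The fit held 1 dye term per feature. It was above 0 for 81.1% of features and for all 6 genes, from 0.04 for Odf2 to 0.35 for Akap4, with adjusted p of 0.173 or more for each, where 0.00679% of features passed. The Odf2 term was 0.17 without probe 8203 (adjusted p = 0.221). Both arrays with Wobbler modifier in Cy5 lay above both with it in Cy3 for 2 of the 6 genes against wildtype (Smcp and Akap4), and also for Odf2 without probe 8203, where 51.3% of features did so. Against Wobbler this held for 2 of 5 genes with all 4 values (Smcp and Odf1) and for 36.2% of features.

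The direct comparisons form a loop: Wobbler modifier over wildtype should equal Wobbler modifier over Wobbler plus Wobbler over wildtype. The difference between the 2 sides was 0.16 ± 0.18 for Smcp (SE, adjusted p = 0.802), -0.07 ± 0.31 for Odf2 (adjusted p = 0.958) and -0.24 ± 0.22 for Akap3 (adjusted p = 0.779). For Odf1 it was -0.44 ± 0.37 (adjusted p = 0.766) and for Fscn3 0.39 ± 0.49 (adjusted p = 0.828). Akap4 had the widest gap, -0.81 ± 0.37, with an unadjusted p of 0.0499 and an adjusted p of 0.710, where 6.95% of features had an unadjusted p under 0.05 and 0.0272% passed. Without replicate 2 of Wobbler over wildtype the Akap4 gap was -0.49, and over single arrays left out it ran from -1.01 to -0.49. The gap of Odf1 ran from -0.58 to -0.11 in the same way. None of the 6 genes passed this test.

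Other genes of the sperm tail, and of spermatid actin and manchette, were described by lists, called tail lists here. The lists were drawn up with results of these arrays known, so their counts are no independent support. Over 7 lists and without the 7 genes, 111 genes were tested. Against wildtype, 4 were lower in Wobbler modifier and passed, none was higher, 107 did not pass, and the median was -0.22 with 80 below 0. Of all features, 0.699% were lower and passed there, and 47.5% were below 0. Without any 1 array of this comparison 1 or 2 passed, and without replicate 2 of Wobbler over wildtype 6 passed. Against Wobbler, 1 was lower and passed, where 0.299% of all features did so. The median of the 111 was -0.07, and none of them passed without replicate 1, 2 or 3 of this comparison. In Wobbler over wildtype limma called none, 17 had an unadjusted p under 0.05, where 15.7% of all features did, and the median was 0.01. There the medians of the outer dense fibre, fibrous sheath and mitochondrial sheath lists, which hold the tested members too, were 0.02, -0.03 and 0.11.

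Of the outer dense fibre list, 1 of 8 genes passed in Wobbler modifier over wildtype, with a median of -0.30. It was Oaz3, also a gene of the late spermatid list, an antizyme translated in spermatids that is known to act on the head-tail junction, at -1.16, -1.15, -1.45 and -1.36 on the 4 arrays. Its fitted value was -1.28 ± 0.12 (SE, n = 4, adjusted p = 0.000995), and in Wobbler modifier over Wobbler it was -0.90 (adjusted p = 0.0120), again the 1 gene that passed in this list, with a median of -0.47. Odf3l1, a relative of an outer dense fibre protein, was at -0.50 against wildtype (adjusted p = 0.677).

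The fibrous sheath list held the highest number of passing genes among the tail lists. Of its 15 genes, 3 were lower and passed in Wobbler modifier over wildtype, 12 did not pass, all 15 were below 0, and the median was -0.48. Pgk2, the glycolytic kinase of spermatids, had -0.94, -0.88, -1.27 and -0.97 and a fitted value of -1.02 ± 0.13 (SE, n = 4, adjusted p = 0.00633). Gstm5, a glutathione transferase found in the fibrous sheath, was at -0.95 ± 0.16 (adjusted p = 0.0282, mean of 2 probes), and Ropn1, which binds the same domain of anchoring proteins as protein kinase A, at -0.88 ± 0.15 (adjusted p = 0.0313). Akap4, at -0.97, lay among these in size but had a wider SE. In Wobbler modifier over Wobbler none of the 15 passed in limma, and the median was -0.20. Of the 15, 5 had an unadjusted p under 0.05, against 11.5% of all features. Ropn1 was there at -0.72 (adjusted p = 0.0881), Pgk2 at -0.68 (adjusted p = 0.0559) and Gstm5 at -0.51 (adjusted p = 0.275).

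Of the mitochondrial sheath list, 1 of 14 genes passed in each Wobbler modifier comparison, and it was Smcp. The medians were -0.24 against wildtype and -0.03 against Wobbler. The testis forms of cytochrome oxidase subunits Cox8c and Cox6b2 were both at -0.30 against wildtype (adjusted p = 0.631 and 0.679), and the channel Vdac2 was at -0.21 (adjusted p = 0.744).

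**Figure D4:**
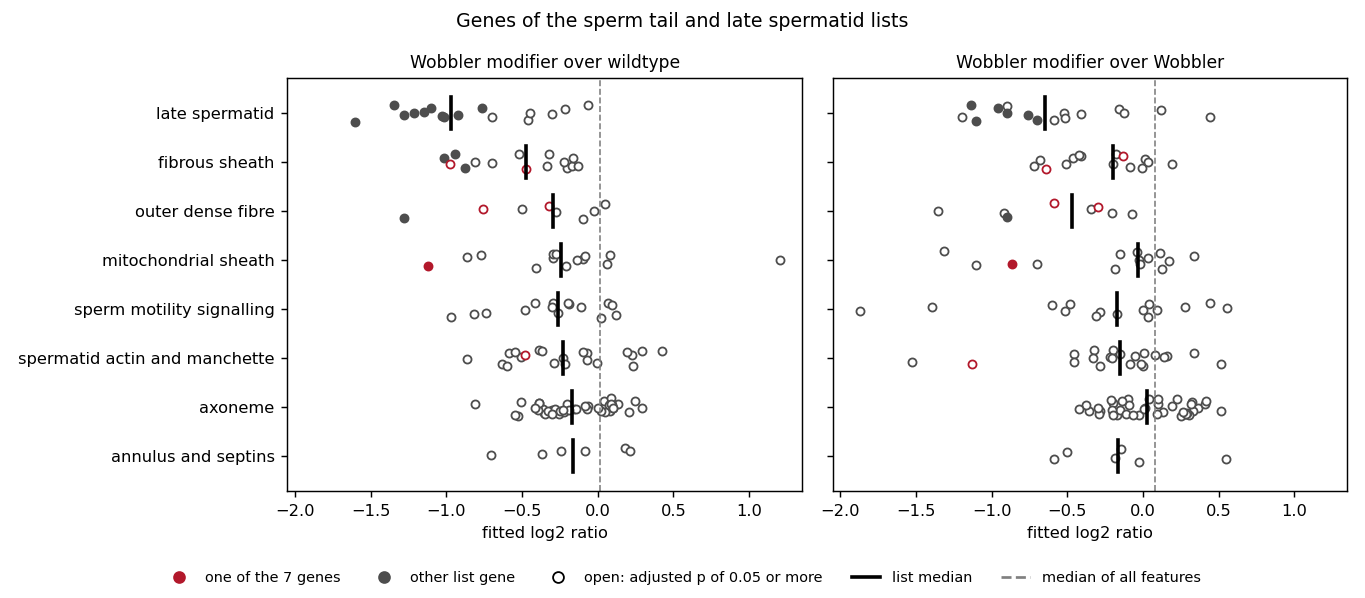
Fitted log2 ratios (x axis) of each tested gene in the late spermatid list and the 7 tail lists (rows). Panels show Wobbler modifier over wildtype and Wobbler modifier over Wobbler. Filled points passed at an adjusted p under 0.05, and red marks the 6 tested genes of the 7. Thick bars are list medians and the dashed line the median of all features. The late spermatid median lies at -0.97 and -0.64, the axoneme median at -0.17 and 0.02.

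The 4 further tail lists had no gene that passed in limma in either Wobbler modifier comparison. Among 42 axoneme genes, 6 had an unadjusted p under 0.05 against wildtype and 3 against Wobbler, and the medians were -0.17 and 0.02. Over all features, 7.33% had such a p against wildtype and 11.5% against Wobbler. Meig1, needed for building the tail, was at -0.55 (adjusted p = 0.211), Tcte3, a dynein light chain, at -0.39 (adjusted p = 0.257), and Spa17, a sperm autoantigen, at -0.81 (adjusted p = 0.288), all against wildtype. Of 15 motility signalling genes, 1 and 2 had an unadjusted p under 0.05, with medians of -0.26 and -0.17. The kinase Tssk2 of spermatids came nearest against wildtype, at -0.74 (adjusted p = 0.0560). Of 6 annulus and septin genes, 2 and 0 had an unadjusted p under 0.05, with medians of -0.16 and -0.17, and Septin2 was at -0.24 (adjusted p = 0.671). Of the 21 spermatid actin and manchette genes, the list of Fscn3, 5 and 5 had an unadjusted p under 0.05, with medians of -0.23 and -0.15, and the actin-related Actl7a was at -0.58 against wildtype (adjusted p = 0.178).

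Enzymes that act on peroxides and thiols, the biochemical kin of Gpx4, gave 1 of 21 genes that passed against wildtype, with a median of -0.19. It was Prdx4, a peroxiredoxin of the secretory pathway, with -0.63, -0.48, -0.95 and -0.66 and a fitted value of -0.68 ± 0.11 (SE, n = 4, adjusted p = 0.0196). Txndc2, a thioredoxin of spermatids that sits in the fibrous sheath, was at -0.68 (adjusted p = 0.161), and Selenop, which carries selenium to the testis, at -0.76 (adjusted p = 0.167). Against Wobbler limma called none of the 21, 4 had an unadjusted p under 0.05, against 11.5% of features, and the median was -0.04.

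Markers of the other cells of the testis were read beside these results, and their part in them was not tested. Against wildtype, limma called 0 of 11 round spermatid acrosome genes, 3 had an unadjusted p under 0.05, and their median was -0.22. Among all features, 7.33% had an unadjusted p under 0.05 in this comparison. Of 6 meiotic spermatocyte genes, at a median of -0.27, 1 was lower (Syce2, of the synaptonemal complex, at -0.94, adjusted p = 0.00867). Spermatogonia had a median of 0.14 over 8 genes, Sertoli cells -0.12 over 11, and peritubular and vessel cells 0.05 over 7, none with a gene that passed and with 1, 4 and 0 genes at an unadjusted p under 0.05. Of 9 Leydig cell genes, at a median of -0.64, 2 were lower, Cyp17a1 of androgen synthesis at -2.03 (adjusted p = 0.000995) and Ephx1 at -0.77 (adjusted p = 0.0172). Of 5 macrophage genes, at a median of -0.42, 1 was lower (Tyrobp, at -0.68, adjusted p = 0.0144). The epididymis list, with a median of -0.17 over 4 genes, and the blood list, with a median of -0.06 over 3, had no gene at an unadjusted p under 0.05.

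Against Wobbler, Cyp17a1 was at -1.39 (adjusted p = 0.00726) and was the 1 gene outside the late spermatid list that passed among these marker lists. The medians there were -0.50 for Leydig cells, -0.37 for macrophages, -0.25 for round spermatid acrosome genes, -0.02 for Sertoli cells, 0.05 for the epididymis list and 0.06 for spermatogonia. Meiotic spermatocytes were at -0.005, peritubular and vessel cells at 0.06 and blood at -0.04.

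The likeness of the genes' patterns was described by Pearson's r over the 12 arrays. The arrays share genotypes and dye orientation and may share pools, so r is given without a p. Among the 5 genes measured on all 12 arrays, Odf1 and Akap4 were most alike (r = 0.930), followed by Smcp and Akap4 (0.889), Smcp and Akap3 (0.785) and Smcp and Odf1 (0.774). Odf1 and Akap4 were both highest on replicate 2 of Wobbler over wildtype, the widest array, at 1.38 and 1.70. Their r values, and the features most like them, may rest on that array, and r without it was not computed. Odf2, with its discordant probes, was least like the rest, between 0.191 with Odf1 and 0.507 with Smcp. That rested in part on probe 8203, without which r was 0.364 with Odf1, 0.545 with Akap4, 0.722 with Akap3 and 0.743 with Smcp. Akap3 and Akap4 had an r of 0.684, below the 4 most alike pairs. Whether their shared promoter run bears on their likeness was not tested. Of 8044 other named features with 12 values, Mtdh (0.985), Stard6 (0.983) and Me1 (0.981) were most like Smcp. Odf1 was most like H2ap (0.975), Hk1 (0.974) and Psmd13 (0.964), and Akap4 most like Hk1 (0.981), Sec23a (0.973) and 1700019N19Rik (0.971). Akap3 was most like Tmem191c (0.886), Pabpc2 (0.881) and Tubb2b (0.878), and Odf2, averaged over its 4 probes, most like S100a10 (0.794), Mdh1b (0.778) and Pank1 (0.768).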

How the data were processed

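Per the labels, 12 two-colour cDNA arrays were hybridised, and the deposited values are log2 ratios, 1 for each spot of an array. Their log base was inferred from the values themselves. How the arrays were scanned, corrected and normalized is not given in the sources used here. On each array 1 repeated extreme value, found on 22 to 165 spots, was read as a code and treated as missing. Replicates 3 and 4 of each comparison, with exchanged dyes, were multiplied by -1. Of 20355 probes, 14030 had 1 gene symbol, 5 had several and 6320 had none. Values of probes with the same symbol were averaged, giving 16255 features. A feature was tested if each comparison held 3 or more of its 4 values, which left 14729 (9139 named).

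The model of limma 3.58.1 (lmFit, eBayes; R 4.3.3) used all 12 arrays, with a mean for each comparison and 1 dye effect for each feature. Benjamini-Hochberg adjusted p under 0.05 within a comparison was the threshold. SEs come from this model, in which a feature has the same spread in every comparison. The steps were tested on simulated data, but no result of that test is given here, so it lends the results no support. Without intensities dim spots could not be filtered directly. A ratio of small whole numbers, up to 5, was taken as a possible sign of a dim spot. By array, such spots were 1.05% to 1.79% of usable spots in Wobbler over wildtype. They were 3.18% to 5.68% in Wobbler modifier over wildtype and 5.65% to 7.73% in Wobbler modifier over Wobbler. Leaving them out was 1 of the alternatives. Precision is limited by the number of arrays.

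The text names all 7 genes and their probes, up to 4 genes of each list with the smallest p in Wobbler modifier over wildtype, and the 3 named features most like each gene measured on 12 arrays. The lists were 7 tail lists, 1 of peroxide and thiol enzymes, and 10 of cell types. The tail lists were outer dense fibre, fibrous sheath, mitochondrial sheath, annulus and septins, axoneme, motility signalling, and spermatid actin and manchette. The members and lists were chosen with earlier results of these data known. Gene positions and promoter windows come from RefSeq tables of GRCm38.p6. Alternatives changed centring, scaling, dye term, filter, model, weights, probes and the set of arrays.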

Additional observations from a re-analysis of the deposited data

Results flagged for a closer look

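Among 102 groups of 4 arrays of the 7 genes and the named tail genes, 8 held 1 array whose gap to the nearest other array took up most of the group's range, and chance gives this in about 1 of 20 groups. Of the Odf2 probes, 12968 was at -0.895 on replicate 3 of Wobbler modifier over wildtype (nearest array -0.567), and 16430 was at 1.07 on replicate 1 of Wobbler over wildtype (nearest -0.273). Replicate 3 also stood apart at -1.13 for Ropn1 (nearest -0.827) and at -0.725 for Actl7b (nearest -0.303) in Wobbler modifier over wildtype, and at -0.974 for Actl7a in Wobbler modifier over Wobbler (nearest -0.327). In Wobbler over wildtype, Vdac2 was at 0.294 on replicate 1 (nearest -0.066), Septin6 at -1.42 on replicate 3 (nearest 0.14) and Cby2 at 5.93 on replicate 2 (nearest 0.438), the array with the widest spread.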

How the results depend on the processing

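Of the members' log2 ratios under other settings, 592 kept their sign and side of the threshold, 27 changed sign, 8 passed newly and 5 no longer passed. The sign changes include those with no array turned. In that setting the genotype difference cancels between dye-exchanged arrays, so its values and counts do not measure that difference. Of the members only Smcp passed as reported. It no longer passed in Wobbler modifier over wildtype when that comparison was fitted alone (adjusted p = 0.0698), and in Wobbler modifier over Wobbler without the dye term (0.0551), fitted alone (0.567), and without its replicate 1 (0.0764) or 2 (0.0624). Akap3, Akap4 and Odf1 passed newly in Wobbler modifier over wildtype with scaled arrays and with array weights (adjusted p = 0.00963, 0.000333 and 0.00219 with weights), and Akap4 and Odf1 without replicate 2 of Wobbler over wildtype. Where no other cause is given, the cause was not tested.

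The members that passed in Wobbler modifier over wildtype (1) were 4 with scaled arrays, 4 with array weights, 0 with no array turned and 0 fitted alone, and 1 to 3 without single arrays. In Wobbler modifier over Wobbler (1) they were 0 without the dye term, 0 with no array turned and 0 fitted alone, and 0 to 1 without single arrays. In Wobbler over wildtype and in the loop none passed under any setting run.

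All features that passed in Wobbler modifier over wildtype (108) were 483 with scaled arrays (71 higher, against 5 of 108), 46 without the dye term, 0 with no array turned, 709 with array weights, 224 with 2 genotype coefficients, 4 fitted alone, 165 with each probe a feature and 65 with 1 dye term per comparison, and 20 to 154 without single arrays. In Wobbler modifier over Wobbler (61) they were 7 without the dye term, 0 with no array turned, 207 with 2 genotype coefficients, 0 fitted alone, 110 by probe and 35 with 1 dye term per comparison, and 0 to 128 without single arrays. In Wobbler over wildtype (45) they were 23 scaled, 24 without the dye term, 0 with no array turned, 22 with array weights, 0 with 2 genotype coefficients, 0 fitted alone and 87 by probe, and 18 to 54 without single arrays.

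The tail-list genes that passed in Wobbler modifier over wildtype (4) were 11 scaled, 2 without the dye term, 0 with no array turned, 18 with array weights, 0 fitted alone, 8 by probe and 2 with 1 dye term per comparison, and 1 to 6 without single arrays. In Wobbler modifier over Wobbler (1) they were 2 with centred arrays, 0 without the dye term, 0 with no array turned, 2 with values on all 12 arrays, 2 with array weights, 3 with 2 genotype coefficients, 0 fitted alone and 3 by probe, and 0 to 2 without single arrays. In Wobbler over wildtype (0) 1 passed with 1 dye term per comparison.

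With no array turned, dye-exchanged arrays entered with opposite sign, so a comparison's value held the dye offset and not the genotype difference. Sign changes in this setting therefore say nothing on the direction of a genotype difference. Smcp was there at 0.087 in Wobbler modifier over wildtype, 0.11 over Wobbler, 0.26 in Wobbler over wildtype and -0.28 in the loop. Akap4 was at 0.20 in Wobbler modifier over wildtype and 0.10 over Wobbler. Akap3 was at 0.11 in Wobbler modifier over Wobbler and 0.29 in Wobbler over wildtype. Odf1 was at 0.24 in Wobbler modifier over Wobbler. Odf2 was at 0.086 in Wobbler modifier over wildtype and 0.07 in the loop, and Fscn3 at -0.26 in the loop. In Wobbler over wildtype, array weights gave -0.0016 for Odf2, -0.0082 for Fscn3 and -0.010 for Odf1, and Odf2 without its sparse probe was at -0.10 (-0.12 in Wobbler modifier over Wobbler). The loop of Smcp was at -0.24 with scaled arrays and that of Odf2 at 0.96 with code values kept. Leaving out single arrays, Wobbler over wildtype ranged from -0.058 to 0.43 for Fscn3 and from -0.061 to 0.39 for Odf1, below 0 without its replicate 2, and from -0.088 to 0.19 for Odf2, below 0 without its replicate 1 (-0.04) or 3. The loop ranged from -0.016, without replicate 1 of Wobbler modifier over Wobbler, to 0.68 for Fscn3. For Odf2 it ranged from -0.23 to 0.13, and was above 0 without replicate 4 of Wobbler modifier over wildtype (0.13) or over Wobbler (0.02), and without replicate 1 (0.01) or 3 (0.06) of Wobbler over wildtype.

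The replicate numbers are shared by the comparisons. Over 12 same-number pairs the correlation of deviations from the comparison means was -0.029 to 0.065, and 0 pairs were over 0.1. With the dye term also taken out it was -0.318 to 0.0037. These values do not settle whether the arrays of a number shared pools. With the replicate number as a block, 58, 24 and 22 features passed in the comparisons in the order above and 2 tail-list genes in Wobbler modifier over wildtype, and Smcp passed at 0.00981 and 0.0398. The block changed no member's call. The dye term for each comparison and the Odf2 mean without its sparse probe were chosen after seeing the data. Without intensities, signal over background is unknown for every spot.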
